A study of Mus musculus with 8 samples.

Results

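Heat shock and endoplasmic reticulum (ER) chaperone genes were followed in nascent RNA of mouse embryonic stem cells. The set was named by gene symbol: Hspa1a, Hspa1b, Hspa8, Hsph1, Hsp90aa1, Hsp90ab1, Dnajb1, Hspa5, Hsp90b1 and Hspe1. Of these 10 symbols, 9 were measured among 16940 genes, and Hspa1a was not analysed here. By the compartment of the protein, 6 of the 9 are cytosolic, 2 (Hspa5 and Hsp90b1) belong to the ER and 1 (Hspe1) belongs to the mitochondrion, so Hspe1 is described apart from the others.

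The cells were of the E14 line, in which the chromatin protein CTCF carries an auxin-inducible degron (CTCF AID). IAA is the auxin that triggers degradation of a protein with this tag. A line labelled as overexpressed control was measured without IAA (untreated control) and after 12 h of IAA (treated control). Lines that overexpressed wild-type CTCF or mutated CTCF were measured with IAA only, also for 12 h. The 4 groups had 2 libraries each, and all cells were kept in serum-free medium with LIF, 1 µM PD0325901 and 3 µM CHIR99021. The labels name neither the mutation nor the content of the control vector, and they do not say whether a line is 1 clone. CTCF-overexpressing lines without IAA were not analysed here, so the re-expressed protein and other differences between lines cannot be told apart. The assay was TT-seq, in which RNA made during a 15 min pulse of 400 µM 4-thiouridine is captured and sequenced.

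Chaperones bind unfolded proteins and help them reach or regain their shape. In the cytosol this is done mainly by the HSP70 and HSP90 families with their co-chaperones, and their genes can be induced by the factor HSF1, which binds heat shock elements (HSEs) made of inverted GAA units. In the ER, the HSP70 protein BiP (Hspa5) and the HSP90 protein GRP94 (Hsp90b1) serve secreted and membrane proteins. Their genes are classical targets of the unfolded protein response, whose factor ATF6 acts at ER stress elements (ERSEs). In the mitochondrion, HSP10 (Hspe1) closes the chamber formed by HSP60 (Hspd1), and both genes are read from a shared promoter in opposite directions.

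Promoter windows were taken from RefSeq (build GRCm38.p6), from 250 bases before to 50 bases after the annotated start. Such a window was found for 6 of the 9 measured members: Hspa1b, Hsph1, Dnajb1, Hspa5, Hsp90b1 and Hspe1. Windows were not found for Hspa8, Hsp90aa1 and Hsp90ab1. For each of 5 genes, 1 window is shown because it holds an HSE or an ERSE, the elements of the heat shock and ER pathways. Capitals mark exact matches to an HSE or an ERSE, and sequences run 5′ to 3′ on the gene's strand.
Hspe1, chr1:55087898-55088197, plus strand: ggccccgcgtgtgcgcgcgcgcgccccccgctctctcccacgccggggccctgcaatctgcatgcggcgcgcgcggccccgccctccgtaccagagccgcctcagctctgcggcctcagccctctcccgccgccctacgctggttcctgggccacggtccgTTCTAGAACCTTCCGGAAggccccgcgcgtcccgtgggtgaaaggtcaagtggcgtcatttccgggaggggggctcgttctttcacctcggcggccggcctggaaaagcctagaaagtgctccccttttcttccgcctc
Hsph1, chr5:149636287-149636586, minus strand: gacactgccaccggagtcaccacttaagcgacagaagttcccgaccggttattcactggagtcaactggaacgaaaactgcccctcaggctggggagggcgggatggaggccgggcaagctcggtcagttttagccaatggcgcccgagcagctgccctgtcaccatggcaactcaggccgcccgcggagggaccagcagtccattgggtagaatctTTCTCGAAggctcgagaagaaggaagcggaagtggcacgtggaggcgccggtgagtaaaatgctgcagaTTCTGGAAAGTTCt
Hspa1b, chr17:34959189-34959488, minus strand: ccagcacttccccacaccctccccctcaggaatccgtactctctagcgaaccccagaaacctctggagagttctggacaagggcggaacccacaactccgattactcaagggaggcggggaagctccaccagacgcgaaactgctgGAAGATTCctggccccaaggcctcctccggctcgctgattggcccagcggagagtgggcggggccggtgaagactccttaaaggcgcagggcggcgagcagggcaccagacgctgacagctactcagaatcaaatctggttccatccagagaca
Hspa5, chr2:34771840-34772139, plus strand: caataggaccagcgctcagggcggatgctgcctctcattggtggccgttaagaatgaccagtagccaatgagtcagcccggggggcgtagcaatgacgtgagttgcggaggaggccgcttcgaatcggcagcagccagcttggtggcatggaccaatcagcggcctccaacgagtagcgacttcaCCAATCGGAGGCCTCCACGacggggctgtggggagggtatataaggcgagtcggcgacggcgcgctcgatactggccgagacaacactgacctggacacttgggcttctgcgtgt
Hsp90b1, chr10:86705395-86705694, minus strand: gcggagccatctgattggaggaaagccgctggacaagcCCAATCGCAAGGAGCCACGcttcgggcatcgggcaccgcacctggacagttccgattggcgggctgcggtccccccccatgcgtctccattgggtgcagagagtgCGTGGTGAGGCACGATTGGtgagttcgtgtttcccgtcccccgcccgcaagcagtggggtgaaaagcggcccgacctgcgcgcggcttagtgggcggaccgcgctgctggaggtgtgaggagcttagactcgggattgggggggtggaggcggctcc

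Both strands were searched for HSEs of 2 units (GAANNTTC and TTCNNGAA), an HSE of 3 units (GAANNTTC followed by NN and GAA) and the ERSE (CCAAT, then 9 bases of any kind, then CCACG). The HSE of 3 units contains both HSEs of 2 units and overlaps them by construction. Among all 32851 RefSeq promoter windows of mouse, 0.603% held the HSE of 3 units, 7.86% GAANNTTC, 8.52% TTCNNGAA and 0.119% the ERSE. Hspe1 held 2 overlapping HSEs of 3 units, together an 18-base element at chr1:55088059-55088076. The same element lies in one of the windows of Hspd1, read on the other strand. Hsph1 held 1 HSE of 3 units, which in the window shown starts 36 bases after the annotated start, and a separate TTCNNGAA 33 bases before that start. A further, overlapping window of Hsph1, not shown, holds the same matches. Hspa1b held only GAANNTTC, 104 bases before its start. No ERSE was found in these 3 windows.

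The ER genes showed the other pattern: Hspa5 held 1 ERSE and Hsp90b1 held 2, in opposite orientations, and neither held an HSE of either form. The windows of Dnajb1, a cytosolic J-domain partner of HSP70, held no exact match to any of these letters. The window of Hspa1b equals that of Hspa1a at 296 of 300 positions, so both copies of the inducible HSP70 gene share nearly the same promoter sequence. These matches describe the sequence only.

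**Figure D1:**
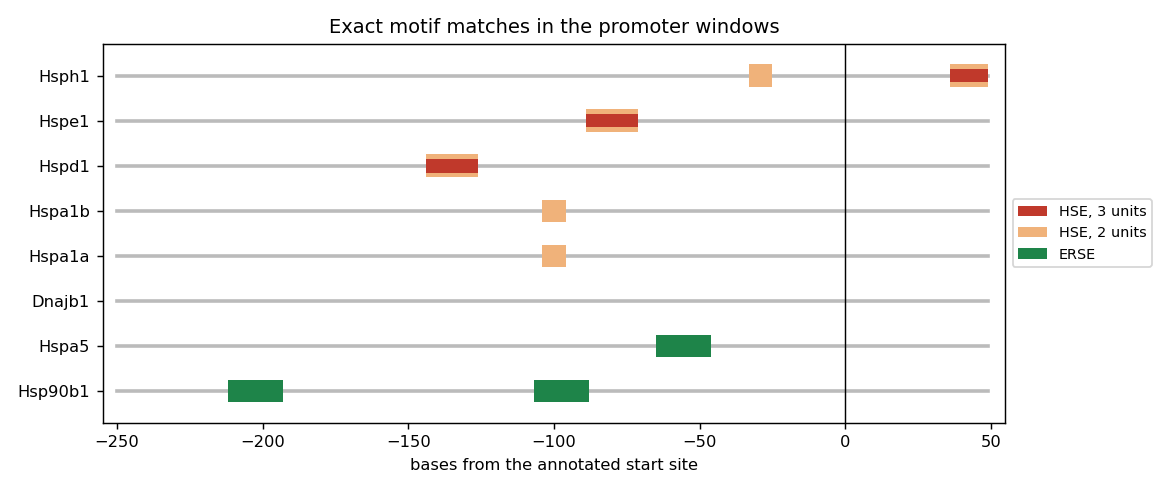
Map of exact HSE and ERSE matches in the promoter windows of 6 measured members, of Hspa1a and of Hspd1, with distance in bases from the annotated start site on the x axis and 1 gene per line. Red bars are HSEs of 3 units, orange bars HSEs of 2 units and green bars ERSEs. ERSEs appear only in the lines of Hspa5 and Hsp90b1.

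Depth was 15671114 to 21561141 whole reads in the 7 libraries whose reads were recovered from the normalized values. The values below are the authors' normalized reads, which are gene counts divided by 1 factor per library. Replicates correlated across genes at r = 0.993 to 0.995 on the log2 scale. Against counting noise, the chi-square of recovered reads per degree of freedom was 3.35 between the wild-type CTCF replicates, 1.34 in the untreated and 1.44 in the treated control. The wild-type CTCF value is the highest of the 3 groups in which both libraries had recovered reads. All 8 embryonic stem cell markers (Pou5f1, Nanog, Zfp42, Esrrb, Klf4, Tfcp2l1, Tdgf1 and Dppa5a) had at least 1005 normalized reads in every library. Of 6 endoderm markers, 3 were measured, and they summed to 179 to 205 normalized reads in the untreated control, 209 to 256 in the treated control and 174 to 197 in the CTCF lines. Both measured mesoderm markers (of 3 listed) summed to 89.2 to 93.1 with wild-type CTCF and to 42.8 to 69.0 in the other groups, and 1 of 3 neural markers, Pax6, had 3.13 to 19.2. The 6 fibroblast markers were not analysed here. The stem cell markers summed to 50301 to 51171 in the untreated control, 53116 to 54442 in the treated control and 57431 to 61546 in the CTCF lines. The endoderm sum was thus highest in the treated control, the mesoderm sum with wild-type CTCF and the stem cell sum in the CTCF lines. Pax6, at low values, was higher with wild-type than with mutated CTCF. The part of these differences in the results below was not tested.

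The members spanned a wide range of nascent output. Per kilobase of exon, and averaged over the 8 libraries, Hsp90ab1, the constitutive cytosolic HSP90, led with 4973 normalized reads per kb, ahead of its inducible paralog Hsp90aa1 with 3107. Hspa8, the constitutive HSP70, followed at 1446 and the ER gene Hsp90b1 at 1018. Hspe1 had 841 normalized reads per kb and Hspa5 515. Hsph1, an HSP110 nucleotide exchange factor for HSP70, had 152, and Dnajb1 102. Hspa1b, the stress-inducible HSP70, stood lowest at 7.28. Over the 8 libraries, the ranges of Hsp90ab1 (3724 to 5868) and Hsp90aa1 (2559 to 3767) overlapped, as did those of Hsp90b1 (963 to 1118) and Hspe1 (693 to 1001), while the other neighbours in this order had separate ranges. Whether the authors counted reads in exons or whole genes is not given in the sources used here, and per kilobase of gene body Hspe1 (390 normalized reads per kb) and Hspa5 (390) exceed Hsp90b1 (268), and Dnajb1 (73.0) exceeds Hsph1 (50.1).

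Some of these levels are uncertain. Of the 50-base windows of the Hspa1b transcript, 62.3% also occur in the Hspa1a transcript, so reads may have been split or dropped between these copies, and the level of Hspa1b is uncertain. Hspa1b lies at chr17:34956436-34959238 on the minus strand of GRCm38 and rested on 7 to 31 reads in the 7 libraries with recovered reads. Hspe1 has 6 named copies in GENCODE M21, and 112 bases of the gene overlap Hspd1 on the opposite strand. Hsp90b1 overlaps 1810014B01Rik, a transcribed pseudogene on the opposite strand with a mean of 113 normalized reads, by 4598 bases. On the same strand, 977 bases of Hsp90b1 overlap Gm15344, and Hspa8 hosts the small nucleolar RNA genes Snord14c, Snord14d and Snord14e. The libraries were strand-specific per the labels, but the strand setting of the counting is not given in the sources used here.

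**Figure D2:**
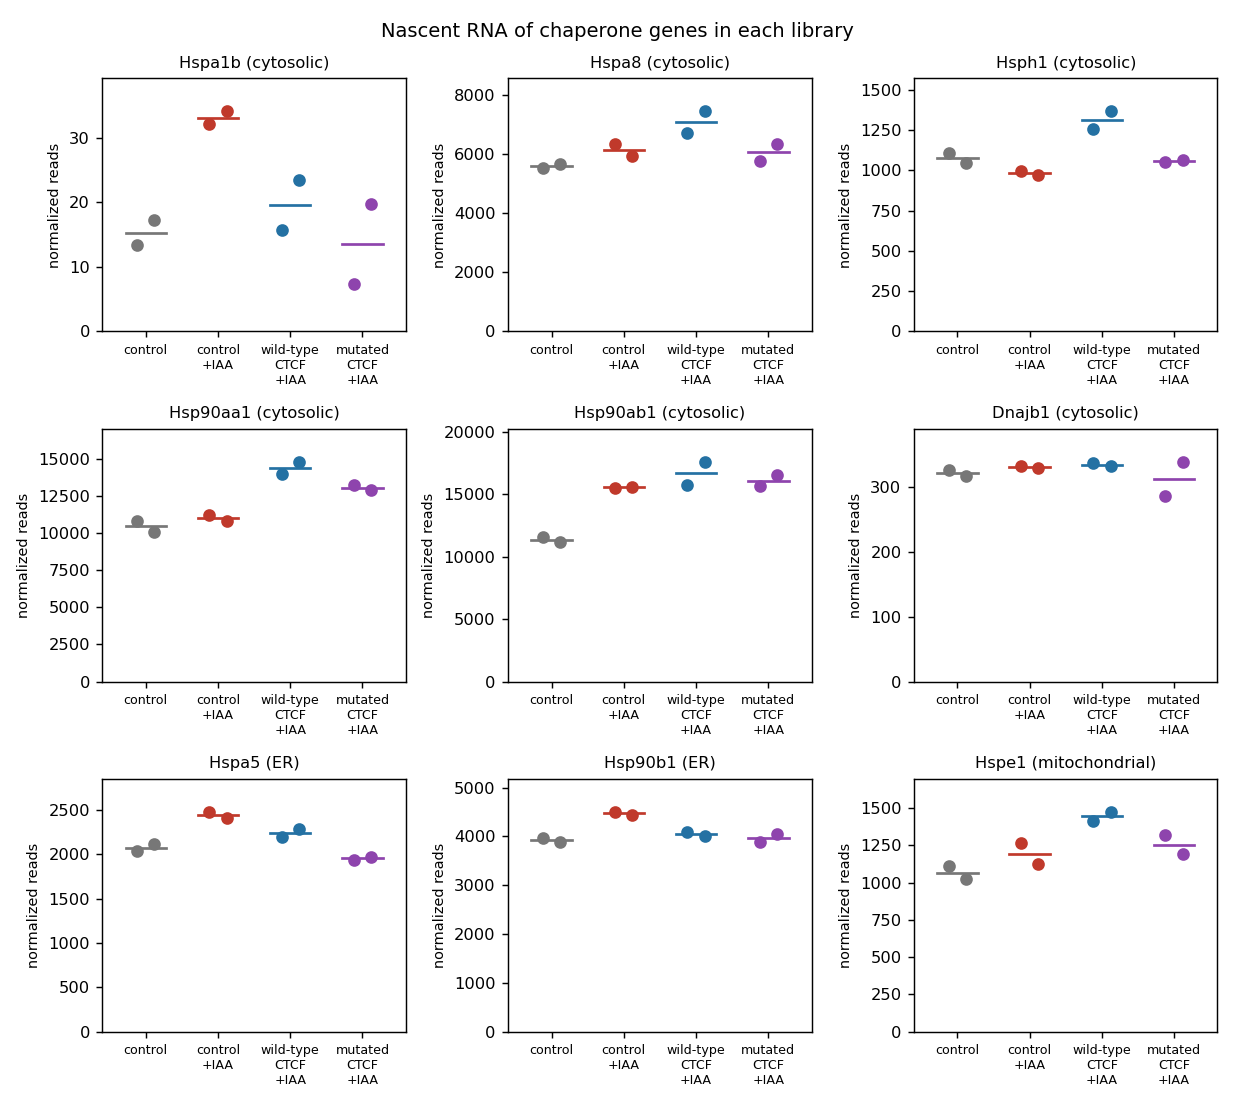
Normalized reads (y axis, starting at 0) of the 9 chaperone genes in each of the 8 libraries, with the 4 groups on the x axis, a point per library and a line at the group mean. Hsp90ab1 lies between 11169 and 11538 in the untreated control and at 15501 or above in all 6 libraries with IAA, while Hspa5 and Hsp90b1 are highest in the treated control.

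With IAA in the control line, which asks what changes when CTCF is depleted, Hsp90ab1 and both ER chaperone genes made more nascent RNA, as did Hspa1b, Hspa8 and Hspe1 with less stable calls. Of the 9 members, 6 rose, 0 fell and 3 did not pass the threshold (adjusted p under 0.05, limma, Benjamini-Hochberg over 15818 genes). Over all genes tested, 37.7% passed, 19.4% higher and 18.4% lower. The median log2 fold change was 0.16 over the members and -0.0017 over all genes. In bulk samples, more RNA per cell and more cells that make it cannot be told apart. Loss of CTCF and other effects of IAA cannot be told apart either, because no line without the degron was analysed here.

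Hsp90ab1 had 11538 and 11169 normalized reads in the untreated control and 15501 and 15588 in the treated control. The libraries of the 2 groups were far apart relative to the gap between replicates. Its log2 fold change was 0.45 (adjusted p = 4.2e-14, SE 0.034), an increase to 1.37-fold. Its paralog Hsp90aa1 had 10828 and 10059 without IAA and 11191 and 10802 with IAA. These libraries overlapped, and the log2 fold change of 0.075 (95% interval 0.0078 to 0.14) did not pass (adjusted p = 0.072, limma).

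Both ER members rose. Hspa5 went from 2037 and 2111 normalized reads to 2479 and 2409.8 with IAA, a log2 fold change of 0.24 (adjusted p = 3.7e-05, SE 0.044). Hsp90b1 went from 3959 and 3892 to 4506 and 4437, a log2 fold change of 0.19 (adjusted p = 8.8e-05, SE 0.037). In neither gene did the groups overlap. The increases of Hsp90ab1, Hspa5 and Hsp90b1 passed the threshold in all 19 alternative settings, with adjusted p up to 0.0089, 0.022 and 0.037.

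Among the HSP70 genes, Hspa1b had 13.4 and 17.2 normalized reads without IAA and 32.2 and 34.1 with IAA. Its groups were separate, with a log2 fold change of 1.08 (adjusted p = 0.013, SE 0.35) at these low values. Hspa8 had 5541 and 5675 normalized reads without IAA and 6329.8 and 5935 with IAA, a small increase of 0.13 on the log2 scale (adjusted p = 0.013, SE 0.042). Hspe1 rose by 0.16 (adjusted p = 0.031, SE 0.060), from 1113 and 1022 to 1266 and 1122.

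The calls of Hspa1b, Hspa8 and Hspe1 depended on single libraries and settings. Without untreated control replicate 1, Hspa1b had 0.90 (adjusted p = 0.14) and Hspa8 0.11 (adjusted p = 0.13). Without treated control replicate 1, the calls of all these genes were lost, at 1.12 for Hspa1b, 0.082 for Hspa8 and 0.074 for Hspe1. Fewer of all genes passed in that setting too. Hspe1 was also lost without untreated control replicate 2 (0.099, adjusted p = 0.37). Without treated control replicate 2, Hspe1 had 0.25 (adjusted p = 0.0078) and Hspa1b was lost (1.03, adjusted p = 0.078). Rescaled to equal totals, 4 members passed as higher and 1 (Hsph1) as lower, and 38.5% of all calls were higher, in place of 51.3% with the deposited scale.

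The other members, Hsph1, Hsp90aa1 and Dnajb1, did not pass in this comparison. Hsph1 had 1108 and 1044 normalized reads without IAA and 995 and 969 with IAA. Although its libraries did not overlap, its log2 fold change of -0.13 had an adjusted p of 0.062 (limma). It passed in 7 of 19 alternatives: after median-of-ratios rescaling (adjusted p = 0.038), with equal totals (-0.18, adjusted p = 0.0037), with only these groups in the fit (adjusted p = 0.042), with the replicate block (adjusted p = 0.041), with edgeR on recovered reads (adjusted p = 0.034), and without wild-type CTCF replicate 1 (adjusted p = 0.048) or replicate 2 (adjusted p = 0.049). Hsp90aa1 passed in 2 of 19 alternatives, with the replicate block and without untreated control replicate 1. With 1 library left out, its value ran from 0.022 to 0.13. Dnajb1 was level, with 327 and 317 normalized reads without IAA and 334 and 330.0 with IAA (log2 fold change 0.043, 95% interval -0.14 to 0.23).

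Wild-type CTCF was then compared with the treated control, both with IAA, which asks what the re-expressed protein changes. This comparison and the one with mutated CTCF use the same treated control libraries as the effect of IAA, so a high value in those libraries alone gives a rise with IAA and a fall in both CTCF lines. The called cytosolic members were higher and the ER members lower. Of the 6 cytosolic members, 4 rose, 0 fell and 2 (Hspa1b and Dnajb1) did not pass, while both ER members fell and the mitochondrial Hspe1 rose. Over all genes 31.6% passed, 21.5% higher and the rest lower. The median log2 fold change was 0.15 over the cytosolic members, -0.13 over the ER members and 0.057 over all genes. After median-of-ratios rescaling the median of all genes was 0.0010, and 50.3% of all calls were higher, in place of 68.3% with the deposited scale. Of the members, 4 were then higher and 2 lower, in place of 5 and 2.

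Hsph1 showed the largest called rise of the set, to 1257 and 1365 normalized reads with wild-type CTCF from 995 and 969. Its log2 fold change was 0.42 (adjusted p = 2.3e-07, SE 0.056). Hsp90aa1 rose to 13945 and 14807 from 11191 and 10802, by 0.39 (adjusted p = 4.4e-12, SE 0.033). Both genes were separate between groups and passed in all 19 alternatives. Hspa8 rose to 6700.2 and 7443 normalized reads, by 0.20 (adjusted p = 1.9e-04, SE 0.042), a call that DESeq2 on recovered reads did not make (0.15, adjusted p = 0.068), and its value was 0.13 (adjusted p = 0.025) without wild-type CTCF replicate 2. Hspe1 rose to 1415 and 1475, by 0.28 (adjusted p = 4.0e-04, SE 0.060), and without treated control replicate 2 it stood at 0.19 (adjusted p = 0.051).

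Hsp90ab1, which had risen with IAA, stayed near the treated control, at 15752 and 17598 normalized reads. Its log2 fold change of 0.099 passed on the authors' scale (adjusted p = 0.025, SE 0.034). It passed in 11 of 19 alternatives. It did not pass after median-of-ratios rescaling (0.043, adjusted p = 0.29) or with equal totals (0.068, adjusted p = 0.061). Nor did it pass with edgeR (0.044, adjusted p = 0.26) or DESeq2 on recovered reads (0.043, adjusted p = 0.64), or without the mean-variance trend (adjusted p = 0.35). The call was also lost without treated control replicate 1 (0.095) or replicate 2 (0.10), or without wild-type CTCF replicate 2 (0.019). Without wild-type CTCF replicate 1 the value was 0.18. Without treated control replicate 2, fewer of the members passed, as did fewer of all genes. Dnajb1 had 338 and 333 normalized reads and overlapped the treated control (log2 fold change 0.016, 95% interval -0.17 to 0.20; -0.040 after median-of-ratios rescaling and -0.014 with equal totals).

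In the ER pair, Hsp90b1 fell from 4506 and 4437 normalized reads to 4092 and 4014, a log2 fold change of -0.14 (adjusted p = 0.0033, SE 0.037). Hspa5 fell from 2479 and 2409.8 to 2193 and 2284, a log2 fold change of -0.13 (adjusted p = 0.026, SE 0.044). The groups did not overlap in either gene. The call of Hspa5 was lost without treated control replicate 1 (-0.11, adjusted p = 0.18) or replicate 2 (-0.15, adjusted p = 0.054), and without wild-type CTCF replicate 1 (-0.098, adjusted p = 0.18). Hspa1b had 15.7 and 23.5 normalized reads with wild-type CTCF, below both treated control libraries. Its log2 fold change of -0.75 (95% interval -1.46 to -0.047) did not pass (adjusted p = 0.096, limma). It did with edgeR on recovered reads (-0.83, adjusted p = 0.024), with only these groups in the fit (adjusted p = 0.049) and without mutated CTCF replicate 1. With 1 library left out, the value ran from -1.03 to -0.48.

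With mutated CTCF against the same treated control, fewer of the members passed: 1 rose, 3 fell and 5 did not pass. Over all genes 34.3% passed, 22.0% higher and 12.4% lower, and the median log2 fold change was -0.018 over the members and 0.055 over all genes. Higher calls made up 63.9% of all calls with the deposited scale but 50.2% after median-of-ratios rescaling, where 1 member was again higher and 3 lower.

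Hsp90aa1 was the member that rose, to 13204 and 12866 normalized reads, by 0.25 (adjusted p = 1.8e-07, SE 0.033). The ER genes fell again. Hspa5 had 1934 and 1972 normalized reads, a log2 fold change of -0.32 (adjusted p = 2.3e-07, SE 0.044), and Hsp90b1 had 3881 and 4059, a log2 fold change of -0.17 (adjusted p = 3.4e-04, SE 0.037). All libraries of both genes lay below those of the treated control. Hspa1b had 7.31 and 19.8 normalized reads, and its replicates differed widely. Its log2 fold change of -1.38 (adjusted p = 0.0018, SE 0.35) became -0.72 (adjusted p = 0.14) without mutated CTCF replicate 1, the library with 7 reads.

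Hsp90ab1 remained high with mutated CTCF, at 15665 and 16491 normalized reads, and did not pass against the treated control (0.048, 95% interval -0.021 to 0.12). With 1 library left out, its value ran from 0.011 to 0.085. Hspa8 had 5779.9 and 6338, on both sides of the treated control libraries (log2 fold change -0.018, 95% interval -0.10 to 0.066). Hsph1 had 1049 and 1065 (0.11, 95% interval -0.0075 to 0.22) and Hspe1 1319 and 1188 (0.071, 95% interval -0.050 to 0.19). Dnajb1 had 286 and 340.1, the widest gap between its replicates in any group.

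**Figure D3:**
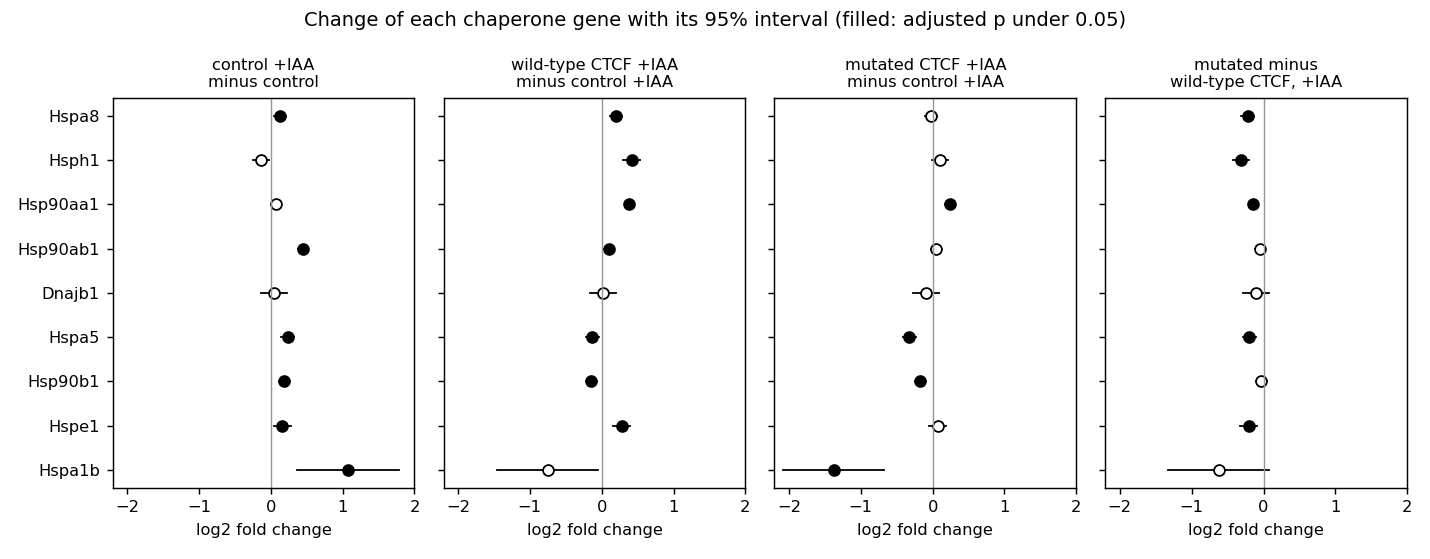
Log2 fold change of each chaperone gene (x axis) in 4 comparisons, 1 gene per line, with bars for the 95% interval and filled points for adjusted p under 0.05. Hspa5 and Hsp90b1 lie right of 0 with IAA and left of 0 with either CTCF form, in 3 comparisons that share the treated control libraries, and Hspa1b has the widest intervals.

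A direct comparison of the 2 CTCF forms, both with IAA, shares no library with the effect of IAA. In it 0 members were higher with mutated CTCF, 5 were lower and 4 did not pass. Over all genes 34.7% passed, 16.3% higher and 18.4% lower, and the median log2 fold change was -0.20 over the members and -0.0087 over all genes. The same counts of 0 higher and 5 lower were obtained after median-of-ratios rescaling and with equal totals.

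Hsph1 differed most among the called members, with 1257 and 1365 normalized reads for wild-type and 1049 and 1065 for mutated CTCF. Its log2 fold change was -0.31 (adjusted p = 3.1e-05, SE 0.056). Hspa8 was lower with mutated CTCF, at a log2 change of -0.22 (adjusted p = 4.6e-05, SE 0.042), as were Hspe1, at -0.21 (adjusted p = 0.0062, SE 0.060) and Hsp90aa1, at -0.14 (adjusted p = 9.3e-04, SE 0.033), each with separate libraries. Hspe1 was lost without mutated CTCF replicate 2 (-0.13, adjusted p = 0.16), and Hsp90aa1 without wild-type CTCF replicate 2 (-0.097, adjusted p = 0.051), where Hspa8 had -0.15 (adjusted p = 0.0066).

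Of the ER genes, 1 of 2 passed. Hspa5 was lower with mutated CTCF, at 1934 and 1972 normalized reads against 2193 and 2284 (log2 fold change -0.20, SE 0.044, adjusted p = 5.6e-04). Hsp90b1 overlapped, at 3881 and 4059 against 4092 and 4014 (-0.030, 95% interval -0.11 to 0.046). Hsp90ab1 also overlapped (-0.051, 95% interval -0.12 to 0.019). It passed without wild-type CTCF replicate 1 (-0.13, adjusted p = 0.0039) and turned to 0.029 without replicate 2. Hspa1b, at -0.62 (95% interval -1.33 to 0.079), passed only without mutated CTCF replicate 2 (-1.29, adjusted p = 0.0091) and was 0.036 without replicate 1.

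Against the untreated control, both cytosolic HSP90 genes were higher in the CTCF lines with IAA, while the ER gene Hsp90b1 did not pass in either line. With wild-type CTCF 6 members were higher and 0 lower, where 43.2% of all genes passed (27.6% higher, 15.6% lower). Higher calls made up 64.0% of all calls, but 51.8% after median-of-ratios rescaling and 45.5% with equal totals. Under either rescaling 5 members were higher and 0 lower. With mutated CTCF 4 members were higher and 0 lower, where 37.8% of all genes passed (24.0% higher, 13.7% lower). Here 63.6% of all calls were higher, but 52.1% after median-of-ratios rescaling and 43.1% with equal totals. Under either rescaling 3 members were higher and 1 (Hspa5) lower. These comparisons share the untreated control libraries with the effect of IAA. Hsp90ab1 stood at log2 fold changes of 0.55 (adjusted p = 1.8e-16, SE 0.034) with wild-type and 0.50 (adjusted p = 3.3e-15, SE 0.034) with mutated CTCF. Hsp90aa1 stood at 0.46 (adjusted p = 1.5e-14, SE 0.033) and 0.32 (adjusted p = 2.8e-10, SE 0.033).

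Hspe1 and Hspa8 were higher than in the untreated control in both lines, Hspe1 by 0.44 (adjusted p = 1.2e-07) and 0.23 (adjusted p = 0.0019) and Hspa8 by 0.33 (adjusted p = 1.9e-08) and 0.11 (adjusted p = 0.033), in limma. With mutated CTCF, the call of Hspa8 was lost with median-of-ratios factors (0.061, adjusted p = 0.20), and without untreated control replicate 1 (0.093, adjusted p = 0.21), replicate 2 (0.13, adjusted p = 0.076) or mutated CTCF replicate 2 (0.044, adjusted p = 0.55), and its value was 0.18 (adjusted p = 0.0034) without mutated CTCF replicate 1. Hspe1 was lost there without untreated control replicate 2 (0.17) or mutated CTCF replicate 1 (0.16). Without untreated control replicate 2, fewer of the members passed, as did fewer of all genes. Hsph1 was higher with wild-type CTCF (0.28, adjusted p = 7.3e-05, limma) and had -0.025 with mutated CTCF (95% interval -0.14 to 0.088).

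The ER members lay near the untreated level in both CTCF lines. Hsp90b1 had 0.046 (95% interval -0.030 to 0.12) with wild-type and 0.016 (95% interval -0.060 to 0.092) with mutated CTCF. Hspa5 had 0.11 with wild-type CTCF (adjusted p = 0.043), a call that was lost in 11 of 19 alternatives, including each of untreated control replicates 1 (0.084, adjusted p = 0.24) and 2 (0.14, adjusted p = 0.051) left out, each treated control replicate (adjusted p = 0.051 for either) and wild-type CTCF replicate 2 (0.080, adjusted p = 0.27). With mutated CTCF it had -0.086 (95% interval -0.18 to 0.0033). That value was -0.14 (adjusted p = 0.0052) after median-of-ratios rescaling and -0.17 (adjusted p = 4.3e-04) with equal totals.

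The HSP90 paralogs changed unequally within libraries. The difference of log2 Hsp90ab1 minus log2 Hsp90aa1, which is not corrected for length and is read only for its change, was 0.092 and 0.15 in the untreated control and 0.47 and 0.53 in the treated control. With wild-type CTCF it was 0.18 and 0.25, and with mutated CTCF 0.25 and 0.36. The treated control libraries were the highest and the untreated ones the lowest, while the lines with CTCF lay between them.

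Hspd1, the partner of Hspe1 at the shared promoter, had 4170.1 and 4421 normalized reads in the untreated control, 5025 and 4837 in the treated control, 5770.0 and 6073 in the wild-type CTCF line, and 5022 and 5375 in the mutated CTCF line. It rose with IAA by 0.20 (adjusted p = 6.5e-05, SE 0.039) and was higher with wild-type CTCF than in the treated control by 0.26 (adjusted p = 1.2e-06, SE 0.039). Between the CTCF forms it was lower with mutated CTCF, at a log2 change of -0.19 (adjusted p = 1.8e-04, SE 0.039), as was Hspe1. The members Hspa8, Hsph1, Hsp90aa1 and Hspa5 were also lower there, so this direction was not particular to the pair. Over the 8 libraries, Hspd1 correlated with Hspe1 at r = 0.87 and with Hspa8 at 0.93. The difference of log2 Hspe1 minus log2 Hspd1 lay between -2.18 and -1.91 in the 8 libraries, and its groups overlapped.

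**Figure D4:**
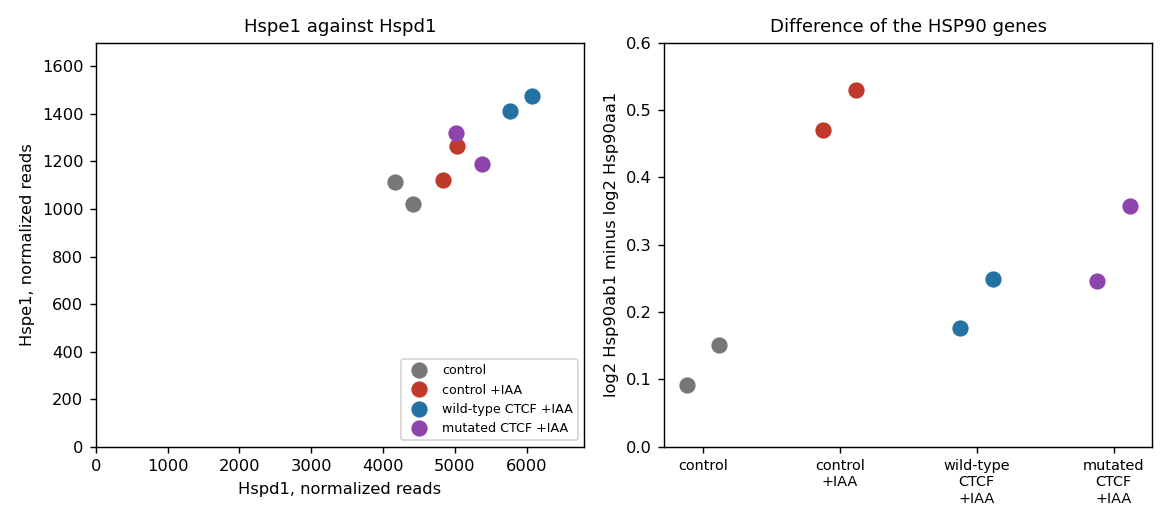
Left, Hspe1 against Hspd1 in normalized reads, 1 point per library and a colour per group. Right, log2 Hsp90ab1 minus log2 Hsp90aa1 in each library by group. The wild-type CTCF libraries hold the highest values of both Hspe1 and Hspd1, and the HSP90 difference is 0.47 and 0.53 in the treated control against 0.092 and 0.15 in the untreated control.

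As a description over the 8 libraries, which fall into 4 groups and share their scale, Hspa5 and Hsp90b1 correlated at r = 0.84, and Hsp90aa1 and Hspe1 at 0.92. Hspa5 and Hsp90aa1 had r = -0.16. The cytosolic Hspa1b correlated with Hspa5 at 0.85 and with Hsp90b1 at 0.82, and Hspa8 with Hspa5 at 0.38. Among 11859 other genes with a mean of at least 50, those most like Hspa8 were Atp6v0d1 (r = 0.99), Psma7 (0.99) and Vars (0.99), where the median gene had 0.23. Those most like Hspa5 were Cap2, Adgra2 and Cep170 (r = 0.98 each), where the median gene had -0.096.

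The regulators of these genes did not move in one direction. Hsf1, the main heat shock factor, passed in none of the 6 comparisons, with 449 to 549 normalized reads over the 8 libraries. Hsf2, a related factor, fell with IAA, at a log2 change of -0.28 (adjusted p = 4.1e-06, SE 0.046), from 2364 ± 49 (SD, n = 2) to 1949 ± 41 normalized reads. The wild-type CTCF libraries had 1975 ± 23 and the mutated CTCF libraries 2209 ± 112, the latter higher than the treated control by 0.18 (adjusted p = 0.0018, SE 0.046). Atf6 and Atf6b, which encode ER membrane-bound factors, did not pass with IAA (-0.0011, adjusted p = 0.99, and -0.024, adjusted p = 0.92, limma). Between the CTCF forms Atf6 was higher with mutated CTCF (0.11, adjusted p = 0.017) and Atf6b lower (-0.51, adjusted p = 0.010).

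Of the ER sensors, Eif2ak3 (PERK) was lower than the treated control with wild-type CTCF, at a log2 change of -0.29 (adjusted p = 6.7e-06, SE 0.047), and also with mutated CTCF, at a log2 change of -0.18 (adjusted p = 0.0026, SE 0.047). Ern1 (IRE1) was lower with wild-type CTCF, at a log2 change of -0.21 (adjusted p = 7.9e-04, SE 0.047), and was higher with mutated than with wild-type CTCF by 0.31 (adjusted p = 1.9e-06, SE 0.047). Xbp1, whose transcript IRE1 splices, was lower with mutated CTCF than in the treated control, at a log2 change of -0.25 (adjusted p = 0.010, SE 0.078). With wild-type CTCF Xbp1 had -0.19 (adjusted p = 0.053), which became -0.25 (adjusted p = 0.0062) after median-of-ratios rescaling. Atf6b was higher with wild-type CTCF by 0.62 (adjusted p = 0.0022, SE 0.16), at 136 ± 18 normalized reads (SD, n = 2) against 87.8 ± 9.6.

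Cytosolic co-chaperone and other heat shock genes were counted from a list of 41, of which 39 were tested. The list includes Serpinh1, a heat shock gene whose protein, the collagen chaperone HSP47, resides in the ER. With IAA 11 rose and 4 fell (median 0.10), against 19.4% and 18.4% of all genes. With equal totals the counts were 4 and 5, where 6667 of all genes passed, 38.5% of them higher. Among called genes with a mean of at least 50, the highest were Cdc37, a kinase co-chaperone of HSP90 (0.22, adjusted p = 0.011), and Cct8, a subunit of the chaperonin CCT (0.21, adjusted p = 6.5e-04). The lowest were Dnajb5 (-0.97, adjusted p = 1.9e-04, from 77.6 ± 1.3 to 40.2 ± 13 normalized reads) and Hspa4l (-0.58, adjusted p = 0.0023).

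Against the treated control, the wild-type CTCF line had 16 genes of this list higher and 2 lower of 39 (13 and 5 after median-of-ratios rescaling), where 31.6% of all genes passed, 21.5% higher and the rest lower. The small heat shock gene Hspb1 rose by 0.61 (adjusted p = 2.7e-06) and Dnajb5 by 0.66 (adjusted p = 0.012), while Hspa4l fell, at a log2 change of -0.62 (adjusted p = 0.0016) and Bag3, a co-chaperone of HSP70, at a log2 change of -0.17 (adjusted p = 0.018), in limma. With mutated CTCF 15 were higher and 3 lower (10 and 4 after median-of-ratios rescaling), against 22.0% and 12.4% of all genes. Hspb8 (0.61, adjusted p = 3.7e-11) and Dnajb4 (0.35, adjusted p = 4.8e-05) led, and Hspa4l at -0.46 (adjusted p = 0.016) and the ER-resident Serpinh1 at -0.48 (adjusted p = 0.025) were the lowest. Over all genes, median-of-ratios rescaling gave 5061 calls with wild-type CTCF, 50.3% of them higher, and 5388 with mutated CTCF, 50.2% of them higher.

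Between the CTCF forms 8 genes of the list were higher and 6 lower with mutated CTCF, against 16.3% and 18.4% of all genes. The cytosolic Hspb1 was lower, at a log2 change of -0.84 (adjusted p = 1.8e-09, SE 0.093), with 342 ± 64 normalized reads (SD, n = 2) against 610.4 ± 73 with wild-type CTCF. Serpinh1, whose protein is in the ER, was lower, at a log2 change of -1.07 (adjusted p = 2.5e-06, SE 0.17), with 65.4 ± 8.2 against 140 ± 31 with wild-type CTCF. Dnajb4 (0.44, adjusted p = 1.1e-06) and Hspb8 (0.35, adjusted p = 4.7e-06) were higher. Against the untreated control, the wild-type CTCF line had 26 genes of the list higher and 3 lower, against 27.6% and 15.6% of all genes. With equal totals these were 21 and 3, and 45.5% of all calls were higher. The mutated CTCF line had 23 and 2, against 24.0% and 13.7% of all genes. Its counts with equal totals were 17 and 5, with 43.1% of all calls higher.

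For the ER, 24 of 27 listed folding, degradation and unfolded protein response genes were tested. With IAA 7 rose and 3 fell (median 0.071), against 19.4% and 18.4% of all genes. Rescaled to equal totals, the counts were 6 and 5, where 6667 of all genes passed, 38.5% of them higher. The secreted chaperone-like Creld2 rose by 0.44 (adjusted p = 0.0014) and P4hb, a disulfide isomerase, by 0.36 (adjusted p = 1.5e-05), while Hspa13 fell, at a log2 change of -0.38 (adjusted p = 0.0018) and Dnajb9, an ER co-chaperone, at a log2 change of -0.20 (adjusted p = 0.029), in limma. Against the treated control, the wild-type CTCF line had 4 higher and 3 lower of 24 (3 and 9 after median-of-ratios rescaling), where 21.5% of all genes were higher and the rest of the 31.6% that passed lower. Canx (calnexin, 0.36, adjusted p = 2.8e-10) and Syvn1 (0.52, adjusted p = 0.021) were higher, and Herpud1 (-0.51, adjusted p = 2.1e-04) and Manf (-0.21, adjusted p = 0.025) lower. Over all genes, median-of-ratios rescaling gave 5061 calls, 50.3% of them higher.

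With mutated CTCF 3 ER genes were higher and 5 lower (2 and 11 after median-of-ratios rescaling), against 22.0% and 12.4% of all genes. Derl2 (0.25, adjusted p = 0.0036) and Canx (0.17, adjusted p = 2.4e-04) were higher, and Wfs1 (-0.36, adjusted p = 0.0030) and Dnajb9 (-0.30, adjusted p = 0.0013) lower. Over all genes, median-of-ratios rescaling gave 5388 calls, 50.2% of them higher. Between the CTCF forms, where 16.3% of all genes were higher and 18.4% lower, 2 were higher with mutated CTCF, Herpud1 (0.36, adjusted p = 0.0069) and Sil1 (0.26, adjusted p = 8.8e-07). Another 6 were lower, among them Creld2 (-0.37, adjusted p = 0.0071) and P4hb (-0.25, adjusted p = 0.0017). Against the untreated control, 8 were higher and 3 lower with wild-type CTCF, against 27.6% and 15.6% of all genes. With mutated CTCF 5 were higher and 2 lower, against 24.0% and 13.7%. Rescaled to equal totals, the counts were 7 and 7, and 3 and 8, where 45.5% and 43.1% of all calls were higher.

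All 11 listed mitochondrial chaperones and proteases were tested. With IAA, where 19.4% of all genes rose and 18.4% fell, 2 rose, Hspa9 (0.20, adjusted p = 4.8e-06) and Hspd1, and Dnaja3 fell (-0.18, adjusted p = 0.013). With wild-type CTCF 5 were higher and 0 lower (list median 0.083), the same counts after median-of-ratios rescaling, against 21.5% of all genes higher, and Clpp (0.35, adjusted p = 0.0056) and Lonp1 (0.27, adjusted p = 0.0064) led. With mutated CTCF 8 were higher and 0 lower (list median 0.21), or 6 and 0 after median-of-ratios rescaling, against 22.0% and 12.4% of all genes. Hscb (0.38, adjusted p = 0.013) and Clpp (0.38, adjusted p = 0.0022) led. Over all genes, median-of-ratios rescaling gave 5061 calls with wild-type CTCF, 50.3% of them higher, and 5388 with mutated CTCF, 50.2% of them higher. Between the CTCF forms, with 16.3% of all genes higher and 18.4% lower, Hscb (0.42, adjusted p = 0.0067) and Grpel2 (0.23, adjusted p = 0.0015) were higher with mutated CTCF, and Hspd1 was lower. Against the untreated control, 4 were higher and 0 lower with wild-type CTCF, against 27.6% and 15.6% of all genes. With mutated CTCF 6 were higher and 0 lower, against 24.0% and 13.7%. Rescaled to equal totals, each line had 3 and 0, where 45.5% and 43.1% of all calls were higher.

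**Figure D5:**
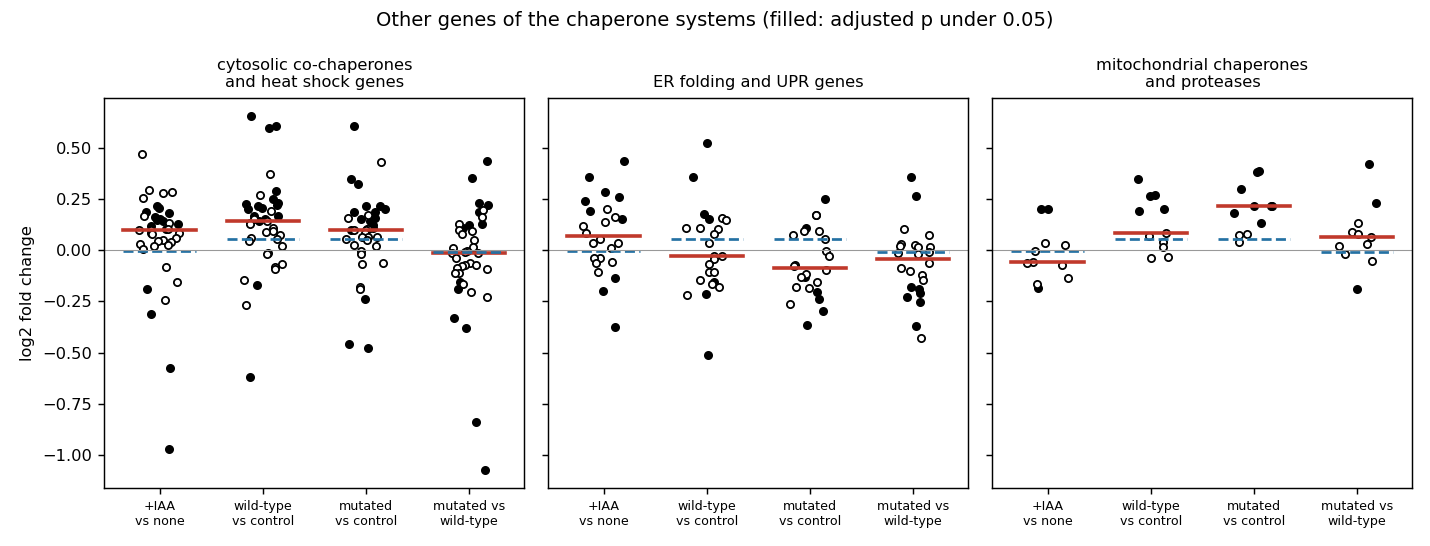
Log2 fold changes (y axis) of the other chaperone genes in 3 lists and 4 comparisons, a point per gene, filled where the adjusted p is under 0.05. Red lines are list medians and dashed blue lines the medians of all genes. The list medians lie between -0.085 and 0.21, and Serpinh1, an ER protein gene in the first list, is the lowest point, at -1.07 between the CTCF forms.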

How the data were processed

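The authors deposited 1 table of normalized counts for 16940 genes, a signal made by dividing gene counts by 1 factor per library. Trim Galore, STAR, featureCounts and DESeq2 and the build mm10 are named, per the submitters' processing notes, without settings. The value of 1 read was found from the low values, and 100% of values were whole multiples of it (within 0.01) in 7 libraries. The eighth library, mutated CTCF replicate 2, has a step close to 1, so its values were not taken as recovered reads and it was left out of count tests. Columns outside the series numbered 0.

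Differences were tested on log2(value + 1) with limma 3.58.1 in R 4.3.3, with 1 coefficient per group over all 8 libraries (4 residual degrees of freedom), empirical Bayes with a mean-variance trend, two-sided. Genes with a mean of at least 10 were tested (15818), with Benjamini-Hochberg adjustment in each of 6 comparisons and a threshold of 0.05. All adjusted p-values are from this fit or the alternative named beside them, of which edgeR and DESeq2 used recovered reads of 6 libraries. Fold changes on this scale understate those of low genes. The labels do not say whether replicates were separate cultures, so p-values measure only the spread between these libraries. The steps were tested on simulated data.

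All measured members were named, and from each pathway list the 2 highest and 2 lowest past the threshold with a mean of at least 50, in 4 comparisons. The likeness ranking took the 3 genes with the highest Pearson r. Members and lists were chosen with earlier results of these data known. Positions are from GENCODE M21 (GRCm38), whose gene versions matched those of all 9 measured members. The Ctcf gene was not analysed here.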

Additional observations from a re-analysis of the deposited data

Results flagged for a closer look

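Hspa8 stood out because its change against the treated control pointed one way with wild-type CTCF (0.20) and the other way, without passing, with mutated CTCF (-0.018). The direct test of that difference gave a log2 fold change of -0.22 (limma, adjusted p = 4.6e-05), with both mutated CTCF libraries below both wild-type ones. It uses the same libraries as the changes it was picked from, so it is no independent support for them. It was lost only without the mean-variance trend (adjusted p = 0.10), and the other alternatives ranged from -0.30 to -0.15. Groups of 2 libraries were too small to look for outlying libraries.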

How the results depend on the processing

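Of 54 pairs of a member and a comparison, 32 were called. In 16 of these the call held in every alternative run, in 16 it was lost in at least 1, and in 0 did the sign change. Leaving out the mean-variance trend lowered the counts in all 6 comparisons, and the cause was not tested. Without it the members called were 3 with IAA, 2 and 2 for the wild-type and mutated CTCF lines against the treated control, 2 between the CTCF forms, 2 for mutated CTCF against the untreated control, and 5 of 6 for wild-type CTCF against it. The genes called were then 3946, 2379, 3228, 3263, 3869 and 4878, against 5967, 4991, 5433, 5489, 5975 and 6828. DESeq2 (1.42.0) on recovered reads called 3858 genes and 3 members (Hsp90ab1, Hspa5, Hsp90b1) with IAA, 2628 genes and 5 members with wild-type CTCF and 4472 genes and 5 members for wild-type CTCF against the untreated control. edgeR (4.0.16, quasi-likelihood) called 6576 genes and 7 members, 5037 and 7, and 7514 and 5 in these comparisons. Count tests were run on 6 libraries, for the 3 comparisons without mutated CTCF. They were not run for the others because mutated CTCF replicate 2, with its step close to 1, was not taken as recovered reads. Hspa1b has no value with a minimum mean of 50.

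Leaving out 1 library at a time moved the genes called to 4284 to 6271 with IAA, 3274 to 5079 with wild-type CTCF (the lowest without wild-type CTCF replicate 2), 3963 to 5769 with mutated CTCF, 3969 to 5461 between the CTCF forms, and 4996 to 6905 and 4234 to 6249 against the untreated control. The members called ranged from 3 to 7, 4 to 8, 3 to 4, 4 to 6, 5 to 6 and 2 to 4. The lone library of a group was then assumed to vary like the other groups.

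Every value that turned its sign was one that had not passed. Dnajb1 turned to -0.0084 (IAA) and -0.023 (wild-type against untreated) with equal totals, and with wild-type CTCF against the treated control to -0.040 (median-of-ratios), -0.014 (equal totals), -0.036 (edgeR) and -0.038 (DESeq2). Hsp90b1 against the untreated control turned to -0.0080 and -0.033 (median-of-ratios), -0.036 and -0.067 (equal totals) for wild-type and mutated CTCF, and to -0.0098 (edgeR) and -0.0094 (DESeq2) for wild-type. Hsp90ab1 with mutated CTCF turned to -0.0032 (median-of-ratios). With 1 library left out, values ran for mutated CTCF against the treated control from -0.085 to 0.048 for Hspa8, -0.21 to 0.036 for Dnajb1 and -0.017 to 0.16 for Hspe1. Between the CTCF forms they ran from -1.29 to 0.036 for Hspa1b, -0.13 to 0.029 for Hsp90ab1, -0.23 to 0.019 for Dnajb1 and -0.062 to 0.0022 for Hsp90b1. For mutated CTCF against the untreated control they ran from -0.96 to 0.36 for Hspa1b, -0.069 to 0.018 for Hsph1, -0.17 to 0.079 for Dnajb1 and -0.016 to 0.048 for Hsp90b1.

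Across genes, same-numbered libraries showed little shared deviation (mean correlation 0.0092, range -0.037 to 0.086 over 6 pairs of groups). This correlation does not register a difference in the scale of a whole library. In every group, replicate 2 had the higher median-of-ratios factor, for example 0.997 against 0.978 in the untreated control. Replicate 2 also had the higher log2 Hsp90ab1 minus log2 Hsp90aa1 and the lower log2 Hspe1 minus log2 Hspd1 in every group. Whether same-numbered libraries were processed together was not tested. With the replicate block 6423 genes and 8 members passed with IAA (Hsph1 and Hsp90aa1 added), 5532 and 7, and 5920 and 4, for the wild-type and mutated lines against the treated control, 5981 and 5 between the CTCF forms, and 7237 and 6, and 6397 and 4, against the untreated control.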
